A study of Mus musculus with 2 samples.

Results

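The major histocompatibility complex (MHC, called H2 in the mouse) was examined in maps of DNA methylation from mouse visceral fat. Its members are all peaks whose midpoint lies in mm9 chr17:33900000-37800000, a stretch of 3.9 Mb. The STD list held 347 such peaks and the HFD list 364, which makes 711 of the 342199 nuclear peaks in both lists together. Position alone chose the peaks, and no measured value of a peak was used. The region itself was chosen with earlier results of these data known. Epididymal white adipose tissue came from male C57BL/6J mice fed regular chow (the STD group) or high-fat food with 60% of its energy from fat (the HFD group) for 5 months, starting at 4 weeks of age. Methylated DNA was pulled down with an antibody and sequenced (MeDIP-seq), and each diet has 1 library. How many mice a library stands for is not given in the sources used here. Without replicates the diets were compared by description, with no p-value. The intervals are exact 95% intervals for counting error only, as if peaks were independent of each other. The lists hold positions without counts or scores, so the sequencing depth is unknown, and DNA with no peak may still be methylated.

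The MHC is one of the most gene-rich stretches of the mouse genome and is known for its part in antigen presentation. Class I molecules such as H2-K1 and H2-D1 are carried by nearly all nucleated cells and present peptides made inside the cell to cytotoxic T cells. Class II molecules are carried mainly by dendritic cells, B cells and macrophages, the last of which are a main immune cell type of fat, and present peptides from outside the cell to helper T cells. Class III genes lie between them and include complement factors (C2, Cfb, C4b) and the cytokine genes Tnf, Lta and Ltb. C57BL/6J is the strain of the mouse reference genome, so reads from this highly variable region come from the haplotype they were aligned to. Whether reads could be placed equally well in all stretches of the region, which holds many related genes, was not examined. The tissue is a mixture of adipocytes, vessel cells and immune cells. A different methylation within a cell type and a different share of that cell type cannot be told apart in these libraries.

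By the borders used here, the region divides into 3 stretches. The first 200 kb (33.9 to 34.1 Mb) are called the proximal edge, "proximal" being the side of the centromere. Class II and class III genes occupy about 34.1 to 35.4 Mb. The stretch from 35.4 to 37.8 Mb holds further class I genes and is called the class I section. These borders are approximate. Peaks were not placed at single genes, because the gene table used here follows the later build GRCm38.p6 and coordinates were not converted. The table gives the order of genes, and all 46 genes of a list of MHC genes were found in it. Between H2-K1 and H2-D1 it lists 81 protein-coding genes, 10 of them with H2 symbols. Notch4, a receptor gene at the start of class III, is separated from H2-D1 by 56 protein-coding genes with no H2 symbol among them. Beyond H2-D1 follow the Q and T class I genes, with 41 protein-coding genes up to H2-T3, 10 of them with H2 symbols. From H2-T3 to H2-M2 there are 43 more, of which 11 have H2 symbols and 16 are olfactory receptor genes (Olfr). Most genes of the class I section are thus not class I genes by symbol.

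MeDIP-seq captures mainly methylated CpG sites, so the number of CpG sites in a sequence limits what it can see. RefSeq start-site sequences (GRCm38.p6) of 300 bases, 250 before and 50 after the start of transcription, were matched for 37 of the 46 genes, and the letters CG, which read the same on both strands, were counted. Where a gene has several starts, the first listed was taken. The median was 8 CG for the listed genes, against 7 for all 27025 genes with such a sequence, of which 94.2% held at least 1 CG. Class II starts held few, with a median of 3 over 8 genes and a range from 0 (H2-Eb1) to 29 (H2-DMa, a chain of the peptide-exchange factor). Class I starts had a median of 9 over 13 genes, from 2 to 19. Genes of antigen processing, such as the peptide transporter gene Tap1 with 15 CG, had a median of 13 over 4 genes. The following 3 sequences, each the 250 bases before a start on the minus strand of chromosome 17, show a class I start, a class II start and one of the outlying M class I genes. Capitals mark CG. No peak was placed at these sequences, and they show only how many sites such starts offer.
H2-K1: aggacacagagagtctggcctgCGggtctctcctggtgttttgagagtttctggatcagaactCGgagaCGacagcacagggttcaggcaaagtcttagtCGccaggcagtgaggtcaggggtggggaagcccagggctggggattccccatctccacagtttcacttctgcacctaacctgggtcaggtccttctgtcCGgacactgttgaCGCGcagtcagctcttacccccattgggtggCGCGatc
H2-Aa: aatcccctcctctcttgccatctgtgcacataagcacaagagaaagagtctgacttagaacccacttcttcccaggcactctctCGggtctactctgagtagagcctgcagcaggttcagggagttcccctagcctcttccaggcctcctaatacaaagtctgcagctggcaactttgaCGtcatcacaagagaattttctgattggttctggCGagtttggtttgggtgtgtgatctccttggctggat
H2-M2: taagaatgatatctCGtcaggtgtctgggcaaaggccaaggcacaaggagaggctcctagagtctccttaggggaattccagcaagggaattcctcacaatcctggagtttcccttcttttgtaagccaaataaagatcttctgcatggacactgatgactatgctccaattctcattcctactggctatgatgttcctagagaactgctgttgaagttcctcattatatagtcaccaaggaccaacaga
In these 250 bases the class I gene H2-K1 has 9 CG, the class II gene H2-Aa has 3 and H2-M2 has 1.

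Where peaks lie along the MHC was described first. The class II and III section was densely covered with peaks in both libraries, the class I section much less so, and the DNA beyond it sparsely. Over the whole region the density was 89.0 STD peaks per Mb (interval 79.9 to 98.8) and 93.3 HFD peaks per Mb (84.0 to 103). The class II and III section held 170 STD and 182 HFD peaks, that is, 131 (112 to 152) and 140 (120 to 162) in each Mb. The class I section held 156 and 158 peaks, or 65.0 (55.2 to 76.0) and 65.8 (56.0 to 76.9) peaks per Mb. The class II and III section was thus 2.01 times as dense as the class I section in the STD library (interval 1.61 to 2.52) and 2.13 times in the HFD library (1.71 to 2.65). Against all autosomes, it was 1.91 (1.63 to 2.22) and 1.93 (1.66 to 2.24) times as dense. For the class I section these ratios were 0.949 (0.806 to 1.11) and 0.910 (0.773 to 1.06), and both intervals include 1. Peaks covered 5.16% (STD) and 5.02% (HFD) of the bases of the class II and III section, and 2.39% and 2.34% of the class I section. The proximal edge held 21 STD and 24 HFD peaks.

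The 4 Mb on either side differed from each other far more than the region differed from both pooled. On the proximal side, from 29.9 to 33.9 Mb, there were 460 STD and 482 HFD peaks, that is, 115 and 120.5 in each Mb. On the distal side, from 37.8 to 41.8 Mb, there were 83 and 79 peaks, or 20.8 and 19.8 peaks per Mb. The MHC was 1.31 (1.14 to 1.50) and 1.33 (1.16 to 1.52) times as dense as both flanks together. It was less dense than the proximal flank alone, at 0.774 (0.671 to 0.891) and 0.775 (0.674 to 0.889) times its density. Against the distal flank alone it was 4.29 (3.37 to 5.52) and 4.73 (3.696 to 6.11) times as dense. The class II and III section was 1.14 (0.948 to 1.36) and 1.16 (0.974 to 1.38) times as dense as the proximal flank, which was not distinguishable at this number of peaks. The class I section was 3.13 (2.39 to 4.14) and 3.33 (2.53 to 4.42) times as dense as the distal flank. Taken as whole flanks, the MHC lies between a peak-rich and a peak-poor stretch of chromosome 17. Density did not fall in a single change inside the region, since the proximal flank was uneven and had peak-poor steps near the MHC. Its step from 33.3 to 33.4 Mb held 1 peak in each list, and 33.4 to 33.5 Mb held 5 STD and 2 HFD peaks.

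**Figure D1:**
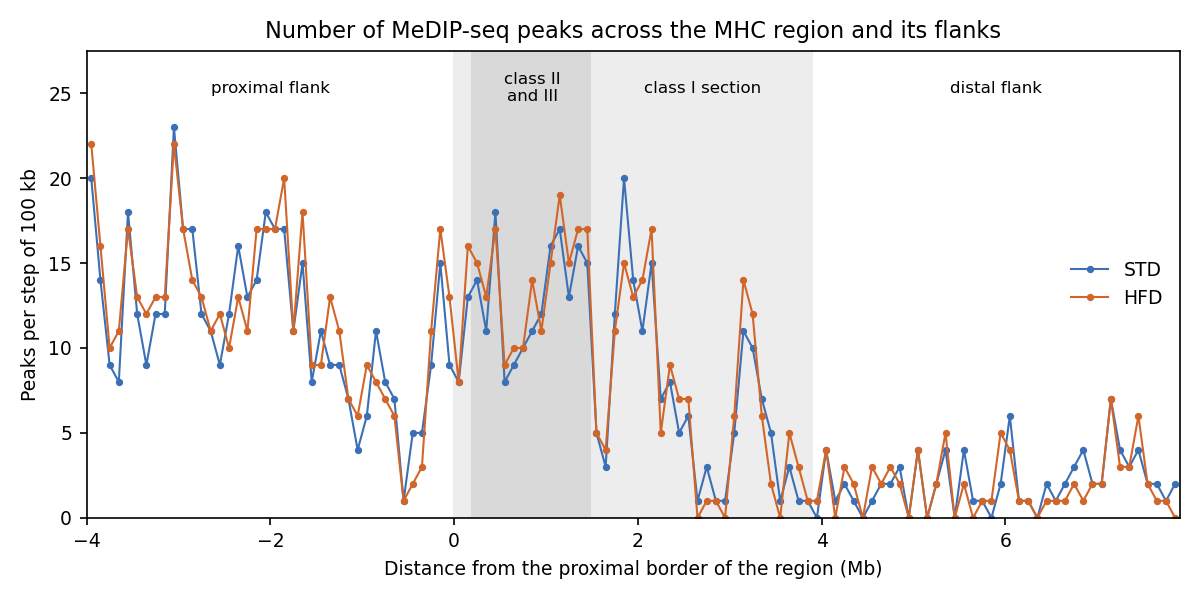
Number of peaks in steps of 100 kb (y axis) against the distance from the proximal border of the region in Mb (x axis), in the STD and HFD libraries. Grey bands mark the proximal edge, the class II and III section (dark) and the class I section. Both lines lie between 8 and 19 peaks per step in the class II and III section and at 7 or fewer in the whole distal flank.

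In steps of 100 kb, the class II and III section held peaks in every step. Its 13 steps held 8 to 18 STD peaks (median 13) and 9 to 19 HFD peaks (median 15). With both lists added, the fullest step of the region was 35.0 to 35.1 Mb, with 17 STD and 19 HFD peaks. Next came 34.3 to 34.4 Mb, with 18 and 17, and, level with it, 35.7 to 35.8 Mb in the class I section, with 20 and 15. The last of these was the fullest step of the STD list alone. The last steps of the class II and III section, 35.2 to 35.3 Mb and 35.3 to 35.4 Mb, held 16 and 17, and 15 and 17 peaks. The next step, 35.4 to 35.5 Mb, held only 5 peaks in each list, and 35.5 to 35.6 Mb held 3 STD and 4 HFD peaks. This dip at the border was short in both libraries, since the step from 35.6 to 35.7 Mb again held 12 STD and 11 HFD peaks.

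The class I section was uneven. Its 24 steps ranged from 1 to 20 STD peaks and from 0 to 17 HFD peaks, with medians of 5 and 5.5. The peaks lay in 2 clusters, set apart by stretches with few peaks, and the borders given here were drawn after the steps had been seen. From 35.4 to 36.5 Mb there were 106 STD and 107 HFD peaks, that is, 96.4 (78.9 to 117) and 97.3 (79.7 to 118) in each Mb. From 36.5 to 36.9 Mb there were 6 STD and 2 HFD peaks, that is, 15.0 (5.50 to 32.6) and 5.00 (0.606 to 18.1) in each Mb. A second cluster from 36.9 to 37.3 Mb held 33 and 38 peaks, or 82.5 (56.8 to 116) and 95.0 (67.2 to 130) peaks per Mb. The last 500 kb, from 37.3 to 37.8 Mb, held 11 peaks in each list, or 22 per Mb (10.98 to 39.4), close to the density of the distal flank. The 5 steps with the fewest peaks of the region, each with 1 or 2 over both lists, all lay in these peak-poor stretches. The HFD list had no peak in 3 of them (36.5 to 36.6, 36.8 to 36.9 and 37.4 to 37.5 Mb), where the STD list had 1 each, a difference that cannot be read at such counts.

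The longest stretch of the region without a peak in either list was chr17:36442414-36578124, with a length of 136 kb. It was followed by chr17:37424975-37523996 (99.0 kb) and chr17:37336525-37424699 (88.2 kb). The other 2 of the 5 longest, of 82.6 kb and 75.8 kb, lay between 36.7 and 37.0 Mb. All 5 belong to the class I section. Within the class II and III section the distance between neighbouring peaks of a list had a median of 5.74 kb (STD) and 5.28 kb (HFD) and never exceeded 37.3 kb. Neighbours at most 1 kb apart made up 17.8% of the STD and 22.7% of the HFD distances there, against 9.86% and 10.2% in the whole lists. In the class I section the median distance was 6.35 kb and 5.90 kb, and the largest were 136 kb and 197 kb.

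The diets were compared next. The number of peaks differed little between the libraries along the whole region. The HFD list had 1.05 times as many MHC peaks as the STD list (interval 0.903 to 1.22), and the same ratio over the genome was 1.06 (1.049 to 1.063). It was 1.07 (0.864 to 1.33) in the class II and III section and 1.01 (0.807 to 1.27) in the class I section. In covered bases the ratio was 0.982, with 132.5 kb (STD) and 130.1 kb (HFD), against 1.02 over the genome. Over the 39 steps, HFD had more peaks in 21, STD in 13, and 5 were equal. The counts of the libraries were correlated across the 39 steps at r = 0.95 (Spearman's rho 0.96). These points share the same pair of libraries and the same sequence composition, so the correlation is a description.

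The largest difference in a step was 5 peaks, in 35.7 to 35.8 Mb, where the STD list had 20 peaks and the HFD list 15. Of these, 13 in each list had a partner, meaning that it shared at least 1 bp with a peak of the other diet, so the difference lay in 7 STD and 2 HFD peaks found with 1 diet only. The next largest differences were 3 peaks. HFD had more peaks at 34.0 to 34.1 Mb (13 STD, 16 HFD), at 34.7 to 34.8 Mb (11 and 14), at 35.9 to 36.0 Mb (11 and 14) and at 37.0 to 37.1 Mb (11 and 14). STD had more at 37.3 to 37.4 Mb (5 STD, 2 HFD). In the proximal flank, steps differed by up to 4 peaks.

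Most MHC peaks were present with both diets. An HFD partner was found for 260 of the 347 STD peaks (74.9%, interval 70.0 to 79.4) and none for 87 (25.1%), against 26.5% without one in the whole STD list. An STD partner was found for 263 of the 364 HFD peaks (72.3%, 67.3 to 76.8) and none for 101 (27.7%), against 30.3% in the whole HFD list. Both shares without a partner are near those of the genome. Counted as separate loci, 260 of 448 were covered in both lists, 87 with STD only and 101 with HFD only. Loci found with 1 diet thus made up 42.0%, against 44.4% over the genome. Of the 188 peaks found with 1 diet only, 53.7% were HFD peaks (46.3 to 61.0), and the value for the genome was 54.7%. The bases common to both lists were 89.6 kb out of 172.9 kb in either, a Jaccard index of 0.518 against 0.503 for the genome.

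The share with a partner was higher in the class II and III section, at 78.8% (71.9 to 84.7) of STD and 75.3% (68.3 to 81.4) of HFD peaks, than in the class I section, at 69.2% (61.4 to 76.4) and 68.4% (60.5 to 75.5). The intervals of the sections overlap in both libraries. The flanks showed the same order, with 77.0% (72.8 to 80.7) and 74.1% (69.9 to 77.9) on the peak-rich proximal side and 68.7% (57.6 to 78.4) and 69.6% (58.2 to 79.5) on the distal side. Within the class I section, the first 1.1 Mb had 74.5% (65.1 to 82.5) and 73.8% (64.4 to 81.9). Of the peaks from 37.3 to 37.8 Mb, 5 of 11 had a partner in each list. From 36.5 to 36.9 Mb, 1 of 6 STD and 1 of 2 HFD peaks had one. In the 29 steps with at least 5 peaks in each list, the share ranged from 57.1% to 100% (STD) and from 50.0% to 90.0% (HFD). The MHC minus both flanks pooled gave differences of -0.763 percentage points (-6.67 to 4.94) for STD and -1.19 points (-7.13 to 4.59) for HFD.

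**Figure D2:**
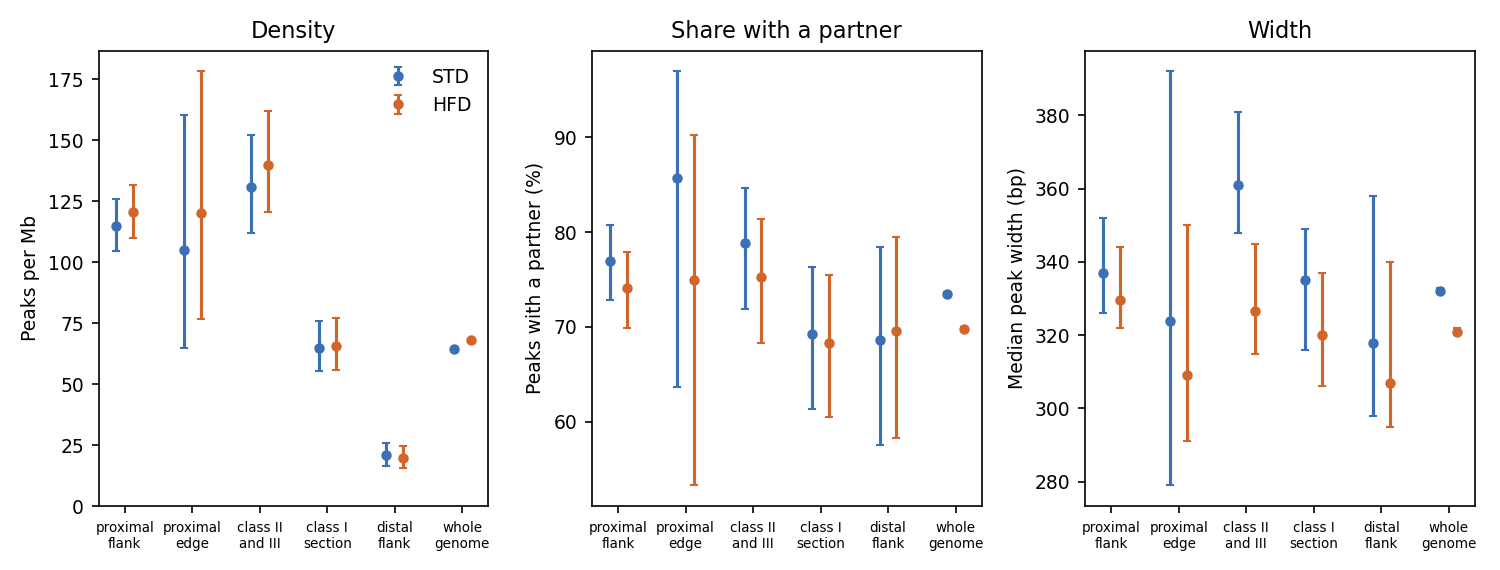
Peaks per Mb (left), share of peaks with a partner in percent (middle) and median width in bp (right) for the flanks, the stretches of the MHC and the whole genome, with exact 95% intervals (Poisson, binomial and order-statistic) as error bars. Density is highest in the class II and III section, at 131 (STD) and 140 (HFD) peaks per Mb, and the gap in median width between libraries is widest there, at 361 against 326.5 bp.

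As in the whole lists, broad MHC peaks had a partner more often than narrow ones. Width was measured above the narrowest peak of the same list, which was 263 bp (STD) and 255 bp (HFD). Up to 20 bp above it, 52.1% of 71 STD peaks (39.9 to 64.1) and 42.5% of 80 HFD peaks (31.5 to 54.1) had a partner. In the whole lists these shares were 47.5% (STD) and 42.8% (HFD). More than 200 bp above the narrowest peak, 52 of 54 STD peaks and 57 of 58 HFD peaks had a partner. In the whole lists 93.7% (STD) and 92.8% (HFD) of peaks of this width had one. In the class II and III section, 30 of 31 STD and all 27 of 27 HFD peaks of this width had one. The median width of shared MHC peaks was 369 bp (STD) and 344 bp (HFD), and that of unshared ones 297 bp and 280 bp.

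The broadest MHC peaks were all shared, but not always to the same extent. The broadest STD peak, chr17:35657822-35658813, had a width of 992 bp, against 551 bp for its HFD partner. The second, chr17:35043042-35043967 in the class II and III section, measured 926 bp, against 572 bp in the HFD list. The third, chr17:33922932-33923803 at the proximal edge, measured 872 bp, against 737 bp in the HFD list, a peak that was itself the fourth broadest HFD peak. The fourth, chr17:34231219-34232048, was 830 bp wide and overlapped 2 HFD peaks of 376 and 389 bp, so that a single STD peak stood opposite a split one. The fifth, chr17:36994222-36995045, measured 824 bp, against 614 bp in the HFD list. In all 5 the STD peak was the broader one, which the choice of the broadest STD peaks favours.

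Among the broadest HFD peaks, the first was chr17:34736955-34737850, with a width of 896 bp against 433 bp for its STD partner. It also showed the largest width difference in favour of HFD, 463 bp. The other peaks were close in width to their partners, apart from the peak at the proximal edge named above. The peak chr17:36017971-36018799 measured 829 bp, against 810 bp in the STD list, and chr17:34990726-34991490 765 bp, against 736 bp. The peak chr17:36097576-36098253 measured 678 bp, against 640 bp in the STD list. In the whole STD list of 166432 peaks, 525 were broader than the broadest MHC peak of STD. In the whole HFD list of 175767 peaks, 883 were broader than that of HFD.

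The median STD peak of the MHC was broader than the median HFD peak, by more than over the genome. The median width was 348 bp (336 to 360) in the STD list and 324 bp (313 to 336) in the HFD list, a difference of -24 bp, HFD minus STD, against 332 and 321 bp over the genome. The intervals of these MHC medians meet at 336 bp, so the difference is at the limit of counting error. Above the narrowest peak of each list, the medians were 85 and 69 bp, against 69 and 66 bp over the genome. The MHC difference was then -16 bp, with limits of -39 and 8 bp from combining both medians' intervals. The difference was largest in the class II and III section, with 361 bp (348 to 381) against 326.5 bp (315 to 345), intervals that do not overlap. Above the narrowest peak of each list, these medians were 98 and 71.5 bp. Lowered by the width of that peak, the intervals do overlap. In the class I section the median widths were 335 bp (316 to 349) and 320 bp (306 to 337), and in the proximal flank 337 bp (326 to 352) and 329.5 bp (322 to 344). Of the 29 steps with at least 5 peaks in each list, STD had the larger median in 22 and HFD in 7. In the proximal flank the numbers were 19 and 17 of 36 steps.

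Partners were also compared directly, over the 257 MHC pairs in which each peak had exactly 1 partner. The difference in width, HFD minus STD, had a median of -14 bp (-21 to -5), against -8 bp over the genome, a value that lies inside this interval. The HFD peak was the narrower one in 156 of the 257 pairs (60.7%, 54.4 to 66.7), against 56.0% over the genome. Pair widths were not measured above the narrowest peak of each list, which was 263 bp (STD) and 255 bp (HFD). How far this offset enters the pair differences was not tested. In the class II and III section the median was -18 bp (-30 to -6) and the HFD peak was narrower in 86 of 131 pairs (65.6%, 56.9 to 73.7). In the class I section it was -5.5 bp (-18 to 9), with 59 of 108 pairs narrower (54.6%, 44.8 to 64.2). The intervals of these sections overlap, and the difference between the sections was not tested. The midpoints of partners lay a median of 26 bp apart, and 90.8% of the STD peak was overlapped at the median.

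**Figure D3:**
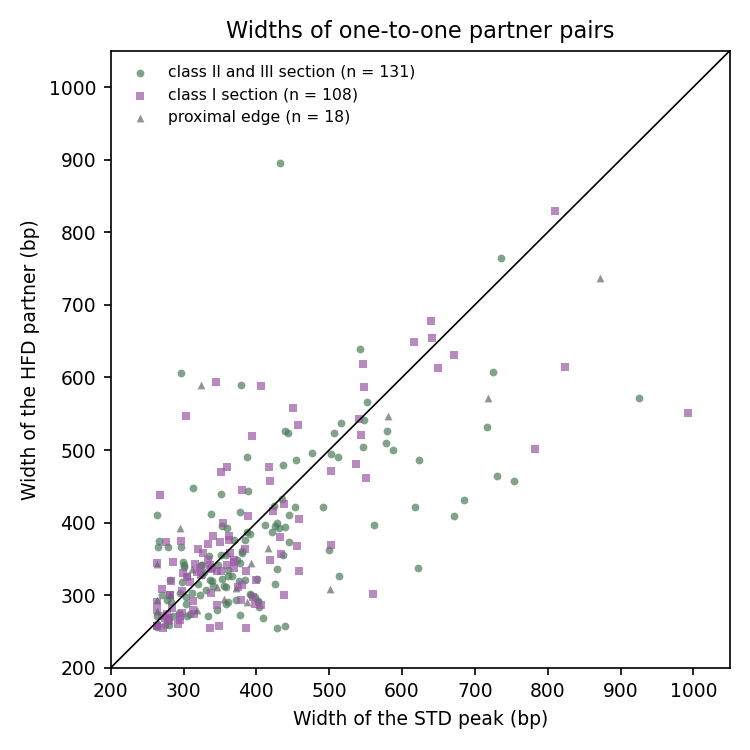
Width in bp of the HFD peak (y axis) against that of its STD partner (x axis) for the 257 MHC pairs with exactly 1 partner on each side, with markers by section, and the line of equal width. Of the pairs in the class II and III section, 86 of 131 lie below the line, and the point farthest above it is the HFD peak of 896 bp.

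The largest single differences went both ways. After the HFD peak of 896 bp, HFD was wider by 309 bp at chr17:35206259-35206864 (606 bp, STD partner 297 bp) and by 266 bp at chr17:34080348-34080937 (590 bp, partner 324 bp). HFD was narrower by 441 bp at the broadest STD peak and by 354 bp at the second broadest. At chr17:35393573-35394326, the last of these, the STD peak was 754 bp wide and the HFD partner 458 bp. With 1 library per diet, how much a width varies between libraries of the same diet is not known.

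Peaks found with 1 diet only were at most 523 bp (STD) and 456 bp (HFD) wide. The broadest STD peak without a partner was chr17:35861279-35861801 in the class I section, 523 bp wide and 3.379 kb from the nearest HFD peak. It was followed by chr17:34192358-34192857 in the class II and III section, 500 bp wide, with the nearest HFD peak at 3.352 kb. Next came chr17:37184179-37184634 (456 bp, 1.82 kb) and chr17:34969165-34969594 (430 bp, 4.52 kb). The fifth, chr17:35306971-35307400 (430 bp), had an HFD peak of 271 bp at a distance of only 185 bp. Even the first of these is not rare in its list, where 9.29% of all STD peaks were at least as wide.

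The broadest HFD peak without a partner was chr17:37174109-37174564 in the class I section, 456 bp wide, with an STD peak 1.28 kb away. The second, chr17:34320464-34320913 (450 bp), had an STD peak of 439 bp at 212 bp. The third, chr17:37012817-37013262 (446 bp), had one at 507 bp. The fourth, chr17:37551043-37551487 (445 bp), lay in a peak-poor stretch, 18.6 kb from the nearest STD peak. The fifth was chr17:35296914-35297341 (428 bp), with the nearest STD peak at 3.26 kb. It opens a run of 3 loci found with HFD only that spans 2.56 kb. No run of neighbouring MHC loci of 1 diet was longer than 3 loci, for either diet. Runs covered in both lists reached 12 loci, from 34073822 to 34160251, across the border of the proximal edge and the class II and III section.

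The distance to the nearest peak of the other list had a median of 2.27 kb for the 87 STD peaks without a partner and 2.53 kb for the 101 HFD peaks. Within 500 bp lay 10 (11.5%) and 11 (10.9%) of them. In the class II and III section the median distances were 1.78 kb (STD) and 1.15 kb (HFD), and in the class I section 3.05 kb and 4.38 kb. Distances over 10 kb occurred for 14 STD and 13 HFD peaks, of which 11 and 9 were in the class I section.

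Finally, the region was set beside the autosomes cut into 593 windows of its own length of 3.9 Mb. In density, 417 windows lay below it in the STD and 415 in the HFD list. The median over windows was 64.4 per Mb (STD) and 68.5 per Mb (HFD). In the 459 windows with at least 100 partner pairs, the share with a partner was lower than that of the MHC in 300 windows (STD) and 355 windows (HFD). The median width of its STD peaks was exceeded in 17 windows only, whereas that of its HFD peaks was exceeded in 145. The difference in median width of -24 bp lay toward the end of the range, with 12 windows more negative and 5 equal, and windows ranged from -29 to 13.5 bp around a median of -11 bp. For the median difference between partners, -14 bp, 43 windows were more negative and 11 equal. The ratio of peak numbers, 1.05, lay near the middle, with 196 windows below it. Windows of 1 pair of libraries are not replicates, and these ranks are descriptions.

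**Figure D4:**
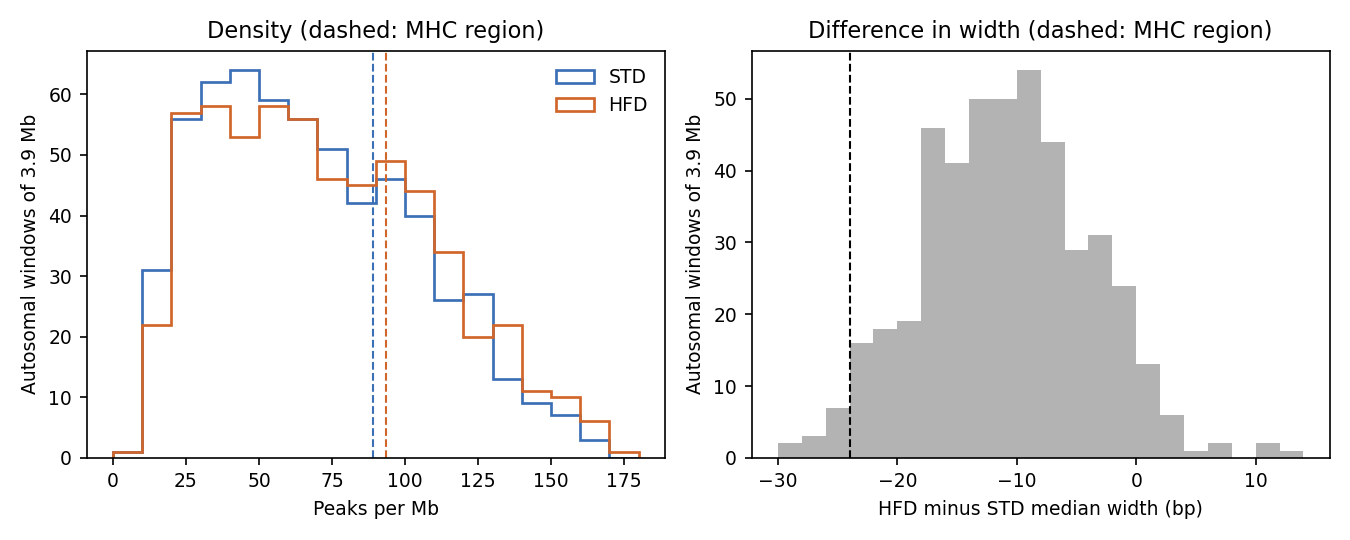
Autosomal windows of 3.9 Mb by peaks per Mb in each library (left, 593 windows) and by the HFD minus STD difference in median peak width in bp (right, the 459 windows with at least 100 partner pairs). Dashed lines mark the MHC region, at 89.0 (STD) and 93.3 (HFD) peaks per Mb and at -24 bp.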

How the data were processed

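The authors deposited 1 peak list per library, in which the start and end positions of peaks are the only measurements. No other unit is given: there is no score, height or p-value. The reads were aligned with BWA and the build was mm9, per the submitters' processing notes. Which peak caller and threshold were used, and whether there was an input control or pooling of mice, is not given in the sources used here. Depth is unknown, and it affects how many weak sites are called as peaks.

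Nuclear peaks were used, and 6 mitochondrial peaks per list were left out. No peaks of 1 list overlap. Positions are printed counting from 1, and a peak belongs to a step by its midpoint. Numbers with a partner were identical to those of bedtools 2.31.1. The scripts ran in Python 3.11.15 (scipy 1.17.1, numpy 2.4.6, pandas 2.3.3), figures were drawn with matplotlib 3.10.9, and functions were tested on simulated data. Intervals are Poisson for density, Clopper-Pearson for shares, conditional binomial for ratios, Newcombe for differences of shares and order-statistic for medians, all at 95%. Limits for the difference between 2 median widths combine opposite ends of their intervals and are wider than 95% limits.

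The region, the gene list and the measures were chosen with earlier results of these data known. Regions named are the 5 broadest peaks of each list, the 5 broadest without a partner, the 5 fullest, emptiest and most different steps, the 5 longest gaps, the longest runs and the 3 largest width differences in each direction. The windows of 3.9 Mb, the stretches within the class I section and the width comparison between diets were added after seeing the data.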

Additional observations from a re-analysis of the deposited data

How the results depend on the processing

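Of 82 recomputed values other than those of single peaks, 63 stayed inside the counting interval of the value reported. Many were computed from largely the same peaks. Measuring width above the narrowest peak of a list cannot change a comparison with the flanks within that list. The number 63 is therefore a description only. The ratio of MHC to flank density, 1.31 (STD) and 1.33 (HFD), reversed to 0.774 and 0.775 with the proximal flank only and was 4.29 and 4.73 with the distal flank only. It was 1.65 and 1.60 with flanks of 2 Mb. Against the rest of chromosome 17 it was 1.12 (0.999 to 1.24) and 1.11 (0.994 to 1.23), and both intervals include 1. The STD difference in the share with a partner was 7.73 points (-8.38 to 22.4) for peaks over 200 bp above the minimum. With the distal flank only, it was 6.25 points (-3.92 to 17.7). Both of these intervals include 0. The HFD difference was 8.49 points (0.991 to 15.6) for peaks of at least 300 bp. The width limits applied to partners as well. The cause of these differences was not tested. The median width exceeded that of both flanks by 13 bp (STD) and was -4 bp from it (HFD), and by 30 and 17 bp that of the distal flank only. Among peaks without a partner, HFD peaks made up 43.8% (35.2 to 52.8) when only those of at least 300 bp were kept. This filter takes more peaks from the HFD list (132 of 364) than from the STD list (100 of 347). The share over the genome under the same filter was not computed. The Jaccard index, for which no counting error is available, was 0.522 after merging, 0.512 and 0.447 for the 2 width limits, and 0.517 and 0.524 with borders moved inward and outward by 200 kb. The ratio of peak number stayed between 0.939 and 1.07. The width difference of -24 bp between diets stayed between -34.5 and -14 bp. For its main value the limits obtained by combining both medians' intervals, -47 and 0 bp, reach 0. Other partner rules changed the status of the named broadest peaks in 4 of 60 cases. They asked for 50% overlap of the shorter peak or of both peaks, or for a peak within 500 bp. The 50% rules cannot give a partner to a peak without one, and the 500 bp rule cannot take one away. Many of the 60 cases could therefore not change, and their number does not measure how stable the status is. No paired analysis was possible because there is a single library per diet, which also means that leaving out a replicate was not done. Since depth is unknown, a missing peak may be a weak one.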
